A study of Mus musculus with 8 samples.

Results

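The ATP-sensitive potassium (KATP) channel is encoded by 4 genes, Kcnj11, Abcc8, Kcnj8 and Abcc9, which were taken by symbol from the 55487 Ensembl genes of the deposited tables. Their transcripts were measured in mouse beta cells obtained from dispersed islets by flow sorting. There were 4 Chd4KO libraries, from tamoxifen-treated mice labelled as lacking the chromatin remodeler Chd4 in beta cells, and 4 Control libraries, from mice that also received tamoxifen. The labels used here do not give the Cre driver, the alleles of the Control mice, age or sex. The labels number each library by animal, and replicates are therefore treated as different mice. All Control animals have lower numbers than all Chd4KO animals, and any difference in litter or day that this marks cannot be told apart from genotype.

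A KATP channel pairs a pore subunit of the inward rectifier (Kir) family with a sulfonylurea receptor, a regulatory subunit of the ABCC family of ATP-binding transporters. In beta cells, ATP made from glucose closes the channel, the membrane depolarizes, calcium enters and insulin is released. Kcnj11 encodes the pore and Abcc8 the receptor of the beta cell channel, which is the target of sulfonylurea drugs. Kcnj8 and Abcc9 encode the pore and receptor best known from vascular smooth muscle, and Abcc9 also serves heart and skeletal muscle.

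Chd4 itself had 8.38, 6.18, 5.27 and 2.59 TPM (a transcript level scaled for gene length and to a fixed total per library) in Chd4KO libraries, against 15.98, 13.4, 11.1 and 12.3 TPM in Control libraries. The groups did not overlap, but the change missed the threshold of 0.05 (log2 -1.18 ± 0.29 SE, limma adjusted p = 0.0725, n = 4 each). It passed under 6 of 19 alternatives, with a limma adjusted p of 0.0112 with median-of-ratios scaling, 0.0196 with scaling without hormones and mitochondrial genes, 0.0085 with quantile normalisation, 0.0092 with array weights, 0.0332 with voom on recovered reads and 0.0376 without Chd4KO replicate 4. Reads assigned to genes, as recovered from the TPM, came to 14928094 to 20164433 in Chd4KO libraries and 16392746 to 41014274 in Control libraries. Ins1 and Ins2 held 36.4, 32.4, 47.0 and 62.0% of all TPM in Chd4KO libraries and 38.1 to 41.8% in Control libraries. Transcripts of acinar enzymes summed to 40067 TPM in Chd4KO replicate 2, against at most 1562 TPM in any Control library. Of 15189 genes tested, 451 changed, which is 2.97% (1.53% higher and 1.44% lower in Chd4KO), and the groups did not overlap for 14.8%. The median gene had a log2 change of -0.25.

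The pore and receptor genes lie as neighbouring pairs. On the mm10 build, Kcnj11 (ENSMUSG00000096146) spans chr7:46093953-46100764 and Abcc8 (ENSMUSG00000040136) spans chr7:46104523-46180033, both on the minus strand and 3758 bases apart. Kcnj8 (ENSMUSG00000030247) spans chr6:142564837-142571614 and Abcc9 (ENSMUSG00000030249) spans chr6:142587862-142702315, also on the minus strand, with 16247 bases between them. Whether reads of one pore or receptor gene can be told from its relative depends on their sequences, so a conserved stretch of each is shown from the GENCODE M21 transcripts. In the pore genes, the capitals mark the codons of the potassium selectivity filter. The stretches lie at chr7:46099460-46099546 and chr6:142566412-142566498 (mm10, minus strand).
Kcnj11: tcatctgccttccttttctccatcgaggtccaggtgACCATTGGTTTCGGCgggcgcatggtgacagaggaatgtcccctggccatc
Kcnj8: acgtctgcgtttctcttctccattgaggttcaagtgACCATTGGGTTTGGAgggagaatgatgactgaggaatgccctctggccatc

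Of these 87 bases, 70 matched and 17 differed, and 12 of the 15 bases in capitals matched. In the receptor genes, the capitals mark the ATP-binding loop of the first nucleotide-binding fold. Those stretches lie at chr7:46135507-46135584 and chr6:142652553-142652630 (mm10, minus strand).
Abcc8: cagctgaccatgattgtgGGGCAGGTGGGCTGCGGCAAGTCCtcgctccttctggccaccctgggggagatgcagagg
Abcc9: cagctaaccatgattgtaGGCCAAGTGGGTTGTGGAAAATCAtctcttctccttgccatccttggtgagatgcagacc

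Here 60 of 78 bases matched and 18 differed, and 17 of the 24 bases in capitals matched. Over the whole coding sequence, Kcnj11 and Kcnj8 were identical at 74.1% of 1160 aligned bases, and Abcc8 and Abcc9 at 70.2% of 4618. The longest run shared by their transcripts was 21 bases for the pore genes and 23 bases for the receptor genes.

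Neither subunit of the beta cell channel passed the test for a change between Chd4KO and Control libraries. Kcnj11 averaged 32.1 ± 10.4 TPM in Chd4KO libraries and 37.3 ± 4.76 TPM in Control libraries, and Abcc8 averaged 473 ± 114 TPM in Chd4KO libraries and 577 ± 101 TPM in Control libraries (SD, n = 4 each). Of the 4 subunit genes, 2 passed the filter on low values, and 0 of those 2 passed the test, against 2.97% of all genes. Kcnj8 was at or under the limit of detection in every library, and Abcc9 was under 0.5 TPM in every library.

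Kcnj11, the pore, had 45.8, 26.4, 34.0 and 22.02 TPM in Chd4KO libraries, against 40.8, 41.0, 30.8 and 36.8 TPM in Control libraries. The groups overlapped, and both the highest and the lowest library were Chd4KO. The log2 change was -0.26 ± 0.25 SE (limma adjusted p = 0.586, exact permutation p = 0.429, two-sided). In fold terms this is 0.837, with a 95% interval of 0.569 to 1.23. The level rested on 685 to 1221 reads in each Chd4KO library and 1062 to 2793 reads in each Control library. Kcnj11 ranked between the 75.8th and 84.9th percentile of tested genes by TPM across the libraries.

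Abcc8, the receptor, had 578, 448, 542 and 323 TPM in Chd4KO libraries, against 699, 609, 543 and 459 TPM in Control libraries. Again the groups overlapped, and Chd4KO replicate 4 was the lowest of all. The log2 change was -0.31 ± 0.24 SE (limma adjusted p = 0.512, exact permutation p = 0.2, two-sided), a fold of 0.809 with a 95% interval of 0.558 to 1.17. Abcc8 ranked between the 99.0th and 99.5th percentile of tested genes in every library. Gm45486, an antisense gene within Abcc8, averaged 35.9 ± 15.5 TPM in Chd4KO libraries and 35.8 ± 8.49 TPM in Control libraries. On the same strand within Abcc8, Gm45487 averaged 5.18 ± 2.09 TPM in Chd4KO libraries and 7.29 ± 2.31 TPM in Control libraries. The libraries do not mark strand, so strand cannot separate reads of Gm45486 from those of Abcc8. Whether exons of these genes overlap was not checked. In bulk RNA, fewer cells of a type and less RNA per cell also cannot be told apart.

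**Figure D1:**
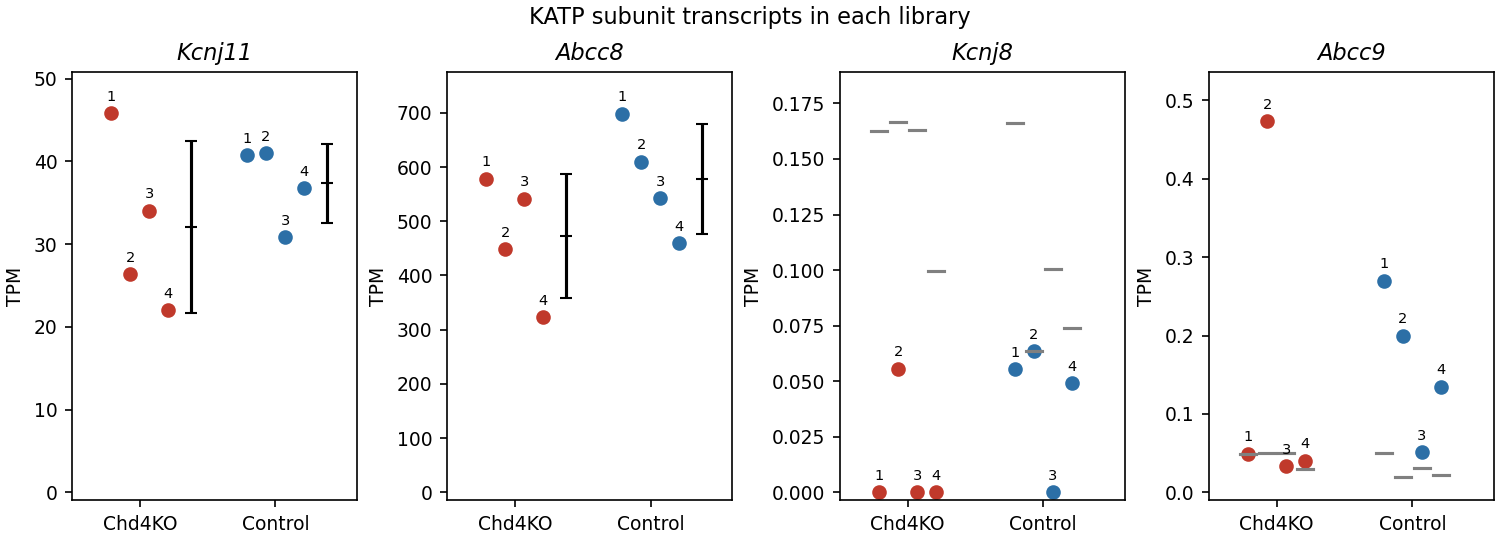
TPM of the 4 KATP subunit genes in each Chd4KO and Control library, numbered by replicate. Black bars give the mean ± SD (n = 4) of the tested genes Kcnj11 and Abcc8, and grey ticks for Kcnj8 and Abcc9 mark the TPM worth 3 reads in that library. Kcnj11 and Abcc8 overlap between the groups, while Kcnj8 stays at or under its ticks.

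Both changes were close to that of the median gene. Relative to it, the log2 change of Abcc8 was -0.05, and 61.0% of tested genes had a larger absolute change than Kcnj11, as did 54.2% for Abcc8. The spread of log2(TPM + 1) between Chd4KO libraries was 0.45 for Kcnj11 and 0.38 for Abcc8, and the median gene had 0.51. Between Control libraries it was 0.19 for Kcnj11, 0.26 for Abcc8 and 0.18 for the median gene.

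Because insulin took an uneven part of the total, both genes were also rescaled to the TPM outside the islet hormones and mitochondrial genes. On that TPM scale Kcnj11 averaged 65.6 ± 15.4 in Chd4KO libraries and 69.5 ± 7.55 in Control libraries (exact permutation p = 0.686, n = 4 each). Abcc8 averaged 970 ± 164 in Chd4KO libraries and 1074 ± 163 in Control libraries (exact permutation p = 0.4, n = 4 each).

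**Figure D2:**
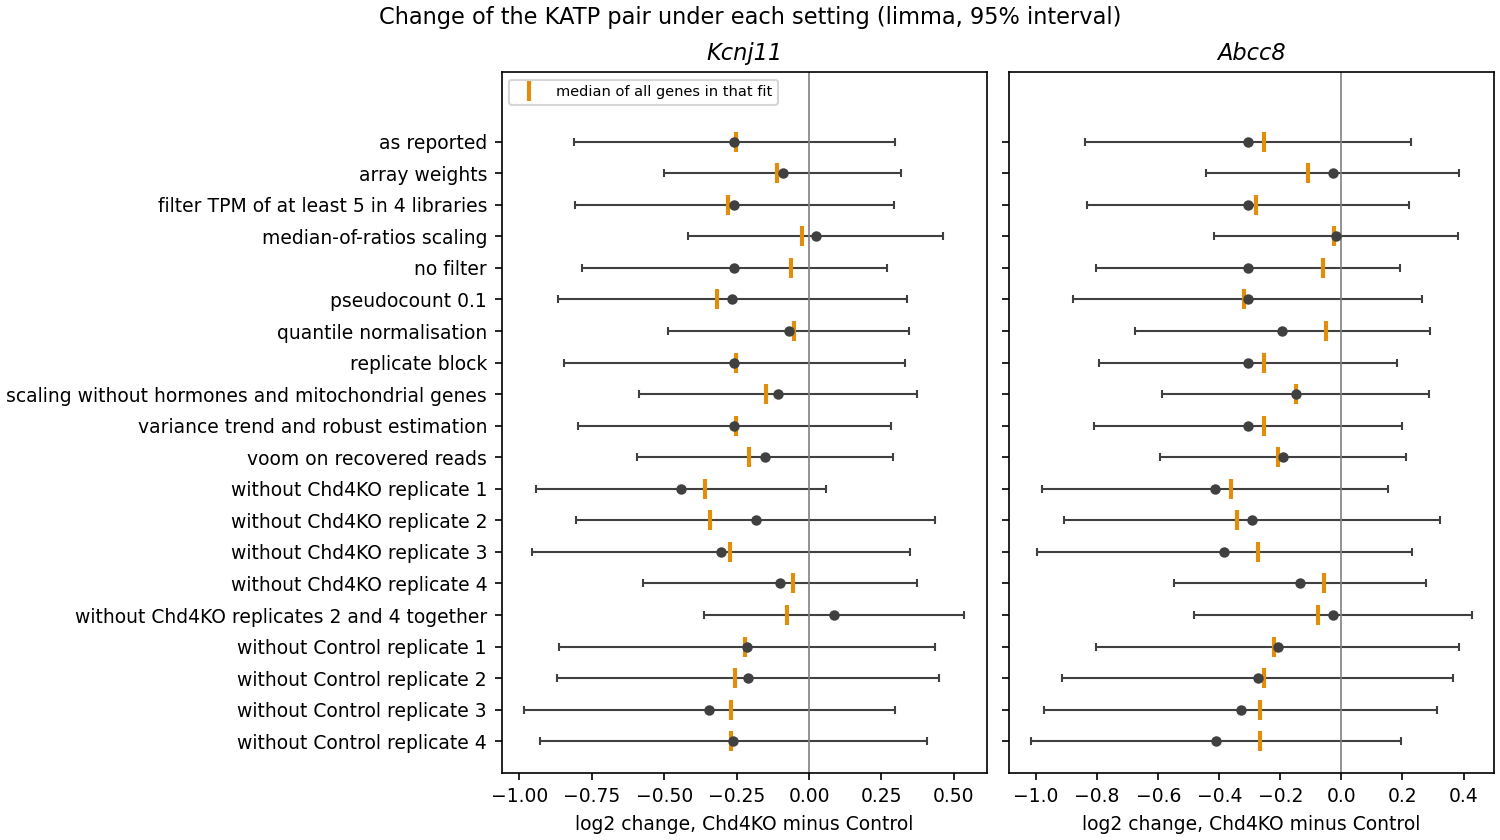
Log2 change (Chd4KO minus Control) of Kcnj11 and Abcc8 with the limma 95% interval under each processing setting. Orange ticks give the median of all genes in the same fit. Every interval includes 0, and Kcnj11 lies slightly above 0 with median-of-ratios scaling (0.023) and without Chd4KO replicates 2 and 4 (0.088).

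The receptor transcript exceeded the pore transcript in every library. The ratio of Abcc8 to Kcnj11 TPM was 12.6, 16.99, 15.9 and 14.7 in Chd4KO libraries, against 17.1, 14.9, 17.6 and 12.5 in Control libraries. The ranges overlapped almost fully. The mean log2 ratio was 3.90 ± 0.19 in Chd4KO libraries and 3.94 ± 0.23 in Control libraries, a difference of -0.04 (exact permutation p = 0.743, n = 4 each). Its size depends on the gene length used: with the longest transcript in place of merged exons, the ratio averaged 21.3 ± 2.66 in Chd4KO libraries and 22.003 ± 3.33 in Control libraries.

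Across the 8 libraries, log2 TPM of Abcc8 and of Kcnj11 were correlated (Pearson r = 0.847, exact permutation p = 0.00682, adjusted over 2 relations 0.0136; Spearman rho = 0.810, exact permutation p = 0.0218, adjusted 0.0436). Without the libraries farthest from the median of Kcnj11, Chd4KO replicates 4 and 2, r was 0.449 over 6 libraries. Leaving out extremes of Kcnj11 narrows its range and tends to lower r, so this cannot show whether the relation rests on them. For deviations of log2(TPM + 1) from the group means, r was 0.814 over all 8 libraries. After rescaling to the TPM outside hormones and mitochondrial genes, r was 0.719 (exact permutation p = 0.0425) and rho was 0.548 (exact permutation p = 0.171), and r was 0.401 without Chd4KO replicate 2 and Control replicate 3. All genes of a library share its depth and its insulin fraction. Among 9847 other genes ranked by correlation of log2(TPM + 1), Abcc8 was number 469 for Kcnj11, and Kcnj11 was number 1385 for Abcc8.

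**Figure D3:**
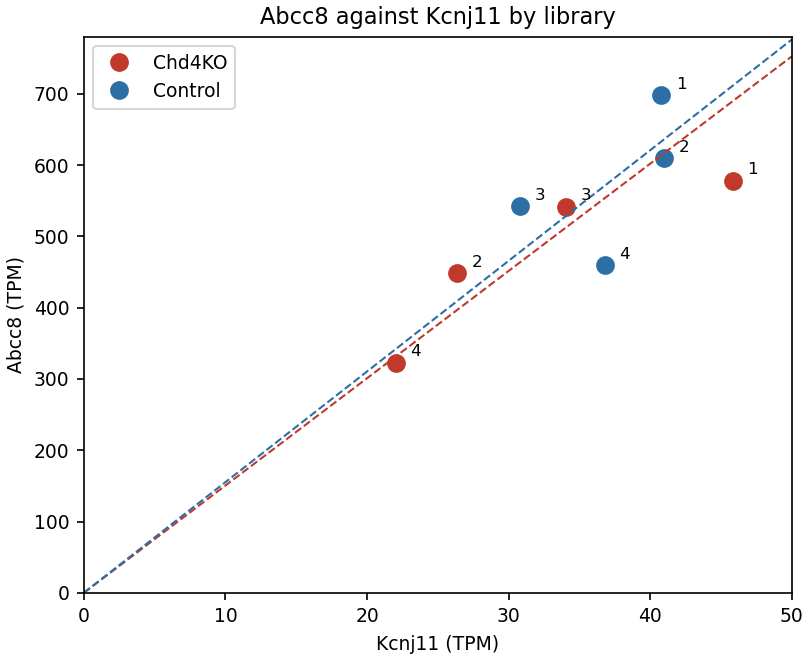
Abcc8 TPM against Kcnj11 TPM in each library, numbered by replicate. The dashed lines have the mean ratio of each group as their slope (15.1 in Chd4KO and 15.5 in Control), and Chd4KO replicates 4 and 2 lie lowest on both axes.

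Kcnj8, the vascular pore, had 0, 1, 0 and 0 reads in Chd4KO libraries, against 1, 3, 0 and 2 reads in Control libraries. That is at most 0.0556 TPM in Chd4KO libraries and at most 0.0635 TPM in Control libraries. A count of 0 allows up to 3 reads, which is worth 0.0635 to 0.167 TPM across the libraries, and every library was at or under that limit. No fold is given.

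Abcc9, the vascular and muscle receptor, had 3, 28, 2 and 4 reads in Chd4KO libraries, against 16, 31, 5 and 18 reads in Control libraries. In TPM these are 0.0494, 0.473, 0.0331 and 0.0403 in Chd4KO libraries, against 0.270, 0.200, 0.0509 and 0.135 in Control libraries. Chd4KO replicates 1, 3 and 4 were the lowest, but on 3, 2 and 4 reads, against 5 reads in Control replicate 3. A count of 3 reads is worth 0.0494 TPM in Chd4KO replicate 1 and 0.0496 TPM in Chd4KO replicate 3, and neither library exceeded that. The order of these low libraries is therefore not read as a group difference. Chd4KO replicate 2 was the highest of all 8 libraries. The same library had the acinar transcripts described above and 7.52 TPM of 5330439B14Rik, an antisense gene overlapping Abcc9, against 0.595 to 1.19 TPM in the other Chd4KO libraries and 0.710 to 0.900 TPM in Control libraries; their part in the result was not tested.

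Markers of the vascular cells that commonly carry Kcnj8 and Abcc9 were low in both groups, though none was at 0 in every library. The summed level of 12 mural cell markers was 1.83 to 7.02 TPM in Chd4KO libraries and 2.37 to 3.01 TPM in Control libraries. Summed over 9 endothelial markers, the level was 6.41 to 9.81 TPM in Chd4KO libraries and 5.62 to 6.12 TPM in Control libraries, without overlap. The 2 tested endothelial markers went opposite ways and did not pass the test. Egfl7 averaged 2.88 ± 0.700 TPM in Chd4KO and 1.30 ± 0.180 TPM in Control (limma adjusted p = 0.0733). Esam averaged 3.32 ± 0.609 TPM in Chd4KO and 4.10 ± 0.204 TPM in Control (limma adjusted p = 0.477). By contrast, 9 beta cell markers summed to 396328 to 652636 TPM in Chd4KO libraries and 429850 to 469294 TPM in Control libraries. Ins1, Ins2 and Iapp carry that sum. Of the 9, 2 passed the test (Mafa and Slc2a2, both lower in Chd4KO), against 1.44% of all genes lower. Nkx6-1 averaged 55.0 ± 9.49 TPM in Chd4KO libraries and 96.7 ± 9.19 TPM in Control libraries (limma adjusted p = 0.0554). Mafa, Slc2a2, Nkx6-1, Slc30a8 (limma adjusted p = 0.152) and G6pc2 (limma adjusted p = 0.203) did not overlap between the groups, against 14.8% of all genes. Ucn3 averaged 287 ± 127 TPM in Chd4KO libraries and 518 ± 153 TPM in Control libraries, with overlap (limma adjusted p = 0.282).

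Among the other inward rectifiers, Kcnj13 rose. Kcnj13, a weakly rectifying pore known from epithelia such as the retinal pigment epithelium, had 11.8, 12.6, 48.98 and 44.0 TPM in Chd4KO libraries, against 6.56, 3.61, 2.75 and 3.80 TPM in Control libraries. The groups did not overlap, and the log2 change was 2.32 ± 0.49 SE (limma adjusted p = 0.0396). Of 13 further Kir genes, 4 were tested, 1 rose and 0 fell, against 1.53% and 1.44% of all genes. Among the 4 was Kcnj4, with 2.95, 3.35, 2.83 and 0.549 TPM in Chd4KO libraries, against 1.57, 0.727, 0.555 and 0.524 TPM in Control libraries. It did not pass the test (limma adjusted p = 0.292). Kcnj4 passed the filter mainly through its Chd4KO libraries, so no median change is given for these genes. Kcnj12 and Kcnj5, a subunit of G protein-gated channels, did not pass the test. Kcnj12 ranged over 5.74 to 20.9 TPM in Chd4KO libraries and 11.7 to 16.7 TPM in Control libraries, and Kcnj5 averaged 7.81 ± 5.42 TPM in Chd4KO libraries and 9.20 ± 6.30 TPM in Control libraries. The call on Kcnj13 held under 6 of 19 alternatives, and without Chd4KO replicate 3 or 4 or any single Control library the limma adjusted p was 0.0599 to 0.139. Kcnj13 lies within Gigyf2 on the other strand, which had similar levels in both groups (9.68 ± 2.43 TPM in Chd4KO and 9.71 ± 1.46 TPM in Control).

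The share of Kcnj11 in the TPM of all 15 Kir genes was 51.4, 37.2, 28.4 and 29.8% in Chd4KO libraries, against 49.9, 55.8, 59.0 and 62.7% in Control libraries. One Chd4KO library lay within the Control range and the other 3 lay below it (36.7 ± 10.5% in Chd4KO and 56.9 ± 5.41% in Control, exact permutation p = 0.0571, adjusted over 7 tests 0.4). With Kcnj13 left out of the sum, the share was 56.5 ± 12.9% in Chd4KO libraries and 60.6 ± 5.399% in Control libraries.

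**Figure D4:**
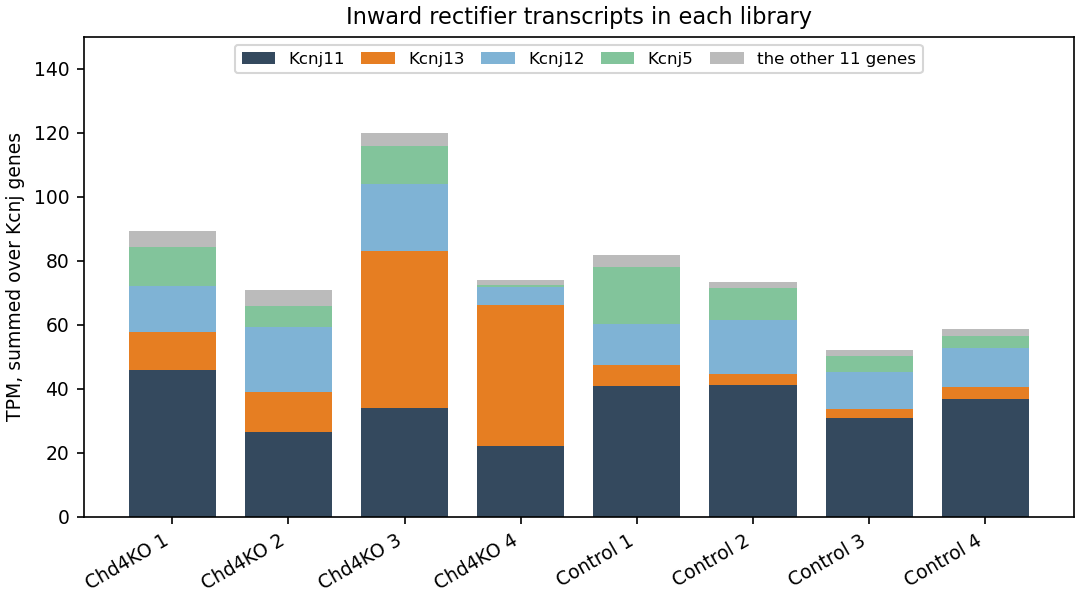
Summed TPM of the 15 inward rectifier genes in each library, stacked by gene. Kcnj11 is the bottom block of every bar, and the Kcnj13 block is larger in each Chd4KO bar (11.8 to 48.98 TPM) than in each Control bar (2.75 to 6.56 TPM).

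In the ABCC family Abcc8 made up nearly all transcripts, 94.0 ± 2.18% of the TPM of 11 genes in Chd4KO libraries and 93.1 ± 0.690% in Control libraries (exact permutation p = 0.514, n = 4 each). Of 9 further ABCC genes, 5 passed the filter on low values. Cftr, the chloride channel mutated in cystic fibrosis, had 0.533, 0.310, 0.107 and 0.0544 TPM in Chd4KO libraries, against 8.13, 2.20, 1.998 and 3.82 TPM in Control libraries. It passed the filter through its Control libraries alone, so a gene with these Chd4KO levels had to differ to be tested, and it is given as values only. Of the other 4 tested ABCC genes, 0 passed the test, against 2.97% of all genes. Their log2 changes were -0.72 for Abcc1, -0.68 for Abcc4, -0.42 for Abcc5 and -0.12 for Abcc10, against -0.25 for the median gene. Abcc4, an exporter of cyclic nucleotides, averaged 6.98 ± 3.46 TPM in Chd4KO libraries and 10.9 ± 2.75 TPM in Control libraries (limma adjusted p = 0.387), and Abcc5 averaged 11.2 ± 5.83 TPM in Chd4KO libraries and 13.4 ± 2.33 TPM in Control libraries (limma adjusted p = 0.603). Antisense Gm15592 lies within the span of Cftr, and strand cannot separate its reads from those of Cftr. Whether their exons overlap was not checked.

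Slc2a2 fell and Kcnk3 rose among genes that act with the channel in glucose sensing and excitation. Of 36 such genes, 32 were tested, 1 rose and 1 fell, against 1.53% and 1.44% of all genes, with a median log2 change of -0.29. An unadjusted limma p under 0.05 was found for 9 of the 32, against 2460 of all 15189 genes. Slc2a2, the main glucose transporter of mouse beta cells, fell to 78.1, 48.4, 98.1 and 46.6 TPM in Chd4KO libraries, against 171, 207, 158 and 145 TPM in Control libraries (log2 -1.37 ± 0.27 SE, limma adjusted p = 0.031). Kcnk3, an acid-sensitive two-pore potassium channel, had 8.33, 5.45, 4.53 and 6.26 TPM in Chd4KO libraries, against 0.994, 2.20, 1.69 and 0.867 TPM in Control libraries (log2 1.56 ± 0.25 SE, limma adjusted p = 0.012). Atp2a3, a calcium pump of the endoplasmic reticulum, averaged 513 ± 287 TPM in Chd4KO libraries and 683 ± 115 TPM in Control libraries (limma adjusted p = 0.503).

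For Slc2a2 and Kcnk3 the groups did not overlap, against 14.8% of all genes. Pcx, Scn9a, Trpm2, Trpm5, Itpr3, Gipr and Adra2a of the same list did not overlap either, all lower in Chd4KO, and did not pass the test. One end of Kcnk3 overlaps Gm9899 on the other strand, which had at most 1.01 TPM in any Chd4KO library and at most 0.226 TPM in any Control library. Some markers of other cells passed the test as well. Leukocyte markers, 10 in all, summed to 58.3 to 106 TPM in Chd4KO libraries and 33.1 to 61.4 TPM in Control libraries. Of the 6 tested, 2 passed the test, both higher in Chd4KO, against 1.53% of all genes. These were Cd68 (4.91 ± 0.791 TPM in Chd4KO and 1.55 ± 0.425 TPM in Control, limma adjusted p = 0.0132) and Fcer1g (48.1 ± 16.97 TPM in Chd4KO and 15.8 ± 5.36 TPM in Control, limma adjusted p = 0.0482). Lyz2 (log2 change 0.15), Csf1r (-0.10), Cd74 (-0.21) and H2-Aa (-0.38) did not pass. Ptprc averaged 0.0857 ± 0.0755 TPM in Chd4KO libraries and 0.351 ± 0.390 TPM in Control libraries. Ptprc and Itgam stayed under 1 TPM in every library. Rbp4 rose too (575 ± 174 TPM in Chd4KO and 171 ± 81.3 TPM in Control, limma adjusted p = 0.0331). It comes from a list of 6 delta and PP cell markers, of which 4 were tested and 1 passed, against 1.53% of all genes higher. The other tested members, Sst (log2 change -0.0071), Ppy (-0.56) and Hhex (-0.35), did not pass. The part of these markers of other cells in the changes of Slc2a2, Kcnk3, Kcnj13 and Mafa was not tested. Some calls did not hold when single libraries were left out. The limma adjusted p of Slc2a2 was 0.0536 to 0.125 without Chd4KO replicate 1 or 2 or any single Control library. That of Kcnk3 was 0.0579 without Control replicate 4. Across the fits without a single library, the log2 change was -1.57 to -1.22 for Slc2a2 and 1.42 to 1.70 for Kcnk3. Without any single Control library, 144 to 199 of all genes changed, against 451 with every library.

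**Figure D5:**
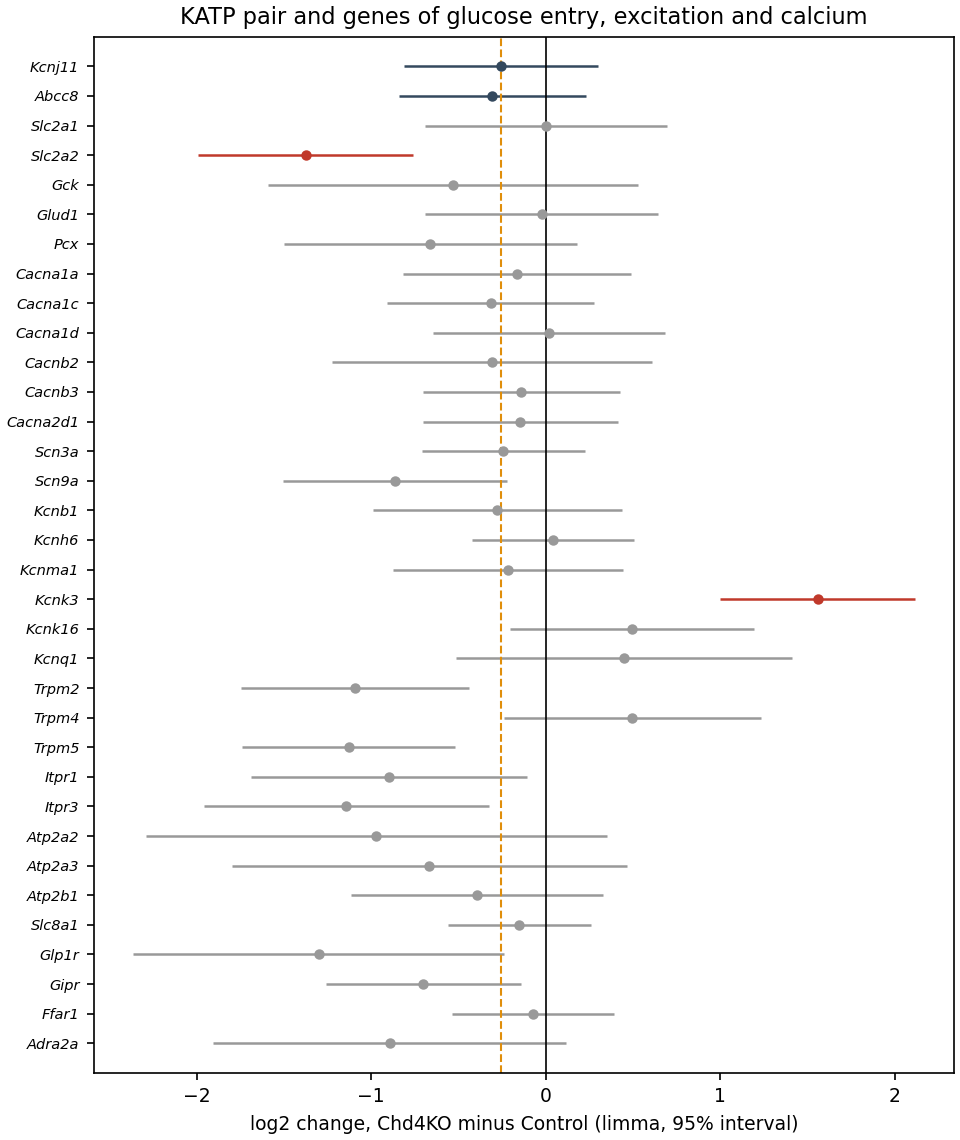
Log2 change (Chd4KO minus Control) with the limma 95% interval for Kcnj11 and Abcc8 (dark blue) and the 32 tested genes of glucose entry, excitation and calcium handling. Red marks genes that passed the adjusted threshold (Slc2a2 and Kcnk3), the dashed line is the median of all genes (-0.25), and the channel pair lies close to that line.

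Among 19 transcription factors of the endocrine pancreas, 17 were tested, 0 rose and 1 fell, against 1.53% and 1.44% of all genes, with a median log2 change of -0.34. Mafa, an activator of insulin transcription in mature beta cells, fell to 62.9, 20.4, 69.8 and 34.9 TPM in Chd4KO libraries, against 164, 162, 183 and 154 TPM in Control libraries (log2 -1.95 ± 0.36 SE, limma adjusted p = 0.0229). Its limma adjusted p was 0.0779 to 0.0852 when any single Control library was left out. Neurod1 averaged 144 ± 59.6 TPM in Chd4KO libraries and 186 ± 26.2 TPM in Control libraries (limma adjusted p = 0.484), and Pdx1 averaged 94.6 ± 23.2 TPM in Chd4KO libraries and 118 ± 14.3 TPM in Control libraries (limma adjusted p = 0.463).

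Of 33 genes for proteins that traffic, modify or bind the channel, 31 were tested and 0 passed limma's adjusted threshold, against 2.97% of all genes. An unadjusted limma p under 0.05 was found for 3 of the 31, against 2460 of all 15189 genes. With voom on recovered reads, 0 were called as well. The median log2 change of the 31 genes was -0.36. Prkar1a, a regulatory subunit of protein kinase A, had 419, 302, 309 and 188 TPM in Chd4KO libraries, against 537, 443, 494 and 480 TPM in Control libraries (log2 -0.73 ± 0.25 SE, limma adjusted p = 0.187). The chaperone Hspa8 averaged 504 ± 256 TPM in Chd4KO libraries and 749 ± 26.5 TPM in Control libraries (limma adjusted p = 0.336), and Hsp90ab1 averaged 599.6 ± 258 TPM in Chd4KO libraries and 693 ± 48.0 TPM in Control libraries (limma adjusted p = 0.606).

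The balance between the channel pair and the genes that changed was also compared. Relative to Kcnj11, the log2 ratio of Slc2a2 was 1.06 ± 0.34 in Chd4KO libraries and 2.19 ± 0.19 in Control libraries, and that of Mafa was 0.45 ± 0.60 in Chd4KO libraries and 2.16 ± 0.28 in Control libraries. The ratio of Kcnk3 to Kcnj11 was -2.36 ± 0.45 in Chd4KO libraries and -4.79 ± 0.68 in Control libraries. These genes were picked because they changed in the same libraries, so this is a description of size, with no test.

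The 3 protein-coding genes on each side of each pair were compared as well. Of these 12 genes, 6 were tested and 0 passed limma's adjusted threshold, against 2.97% of all genes. An unadjusted limma p under 0.05 was found for 2 of the 6, against 2460 of all 15189 genes. With voom on recovered reads, 0 were called as well. Next to Abcc8 lies Ush1c, a scaffold protein known from hair cells and intestinal microvilli. It had 26.6, 31.1, 35.7 and 22.8 TPM in Chd4KO libraries, against 62.6, 47.6, 48.2 and 47.8 TPM in Control libraries, without overlap (log2 -0.82 ± 0.20 SE, limma adjusted p = 0.0688). On the Kcnj11 side, Nomo1 had 28.1, 17.8, 19.7 and 5.43 TPM in Chd4KO libraries, against 41.3, 28.2, 31.3 and 31.2 TPM in Control libraries (limma adjusted p = 0.271), also without overlap. Abcc6 had 0.124 to 0.384 TPM in Chd4KO libraries and was listed at 0 in every Control library, and Myod1 was listed at 0 throughout. Ccdc114, St8sia1, Otog, Spx, Gys2 and Sult6b2 stayed under 4 TPM in every library. Of these, St8sia1 (0.605 to 1.77 TPM in Chd4KO and 1.97 to 2.66 TPM in Control) did not overlap between the groups. Among the 6 tested neighbours, Nomo1, Ush1c and St8sia1 did not overlap, against 14.8% of all tested genes. Gys2 (0.540 to 3.89 TPM in Chd4KO and 0 to 0.122 TPM in Control) and Otog (0.0163 to 0.174 TPM in Chd4KO and 0 to 0.00824 TPM in Control) did not overlap either. Gys2 and Otog were not tested, so the 14.8% does not cover them. Beside the Kcnj8 and Abcc9 pair, Ldhb averaged 27.4 ± 8.25 TPM in Chd4KO libraries and 25.6 ± 4.21 TPM in Control libraries, and Cmas averaged 76.9 ± 29.5 TPM in Chd4KO libraries and 71.4 ± 8.34 TPM in Control libraries.

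Genes whose level across the 8 libraries was most like each subunit were listed by Pearson correlation of log2(TPM + 1), as a description. For Kcnj11 these were Tefm (r = 0.966), Gm43766 (0.957), Morn4 (0.955), D5Ertd579e (0.954) and Mras (0.951), and Abcc8 ranked 469 of 9847. For Abcc8 they were Zfp13 (0.973), Cntn1 (0.973), Zfp282 (0.964), Usp46 (0.963) and Taf9b (0.961), and Kcnj11 ranked 1385 of 9847. After the group means were subtracted, the genes most like Kcnj11 were Slc16a9 (r = 0.963), Ctdnep1 (0.961), Angptl6 (0.960), Tefm (0.959) and Fam3c (0.959). Those most like Abcc8 were Tmx2 (0.980), Zadh2 (0.977), Kcnj5 (0.977), Zfp13 (0.976) and Mir199a-1 (0.975). All share the depth and composition of the same 8 libraries.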

How the data were processed

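For every library the authors deposited TPM values of 55487 Ensembl genes. The build mm10 and the tools HISAT2, HTSeq, DESeq2, Trimmomatic and FastQC are named per the submitters' processing notes, with neither versions nor roles, and the gene annotation they used is not stated in these sources. Per the labels' protocols, cDNA was made with a SMART-Seq low-input kit and libraries with Nextera XT. Symbols, positions, merged exon lengths and sequences came from GENCODE M21, which held 55227 of the identifiers (99.5%). TPM sums to a fixed total, so a larger insulin share lowers all other values.

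Genes reaching 1 TPM in 4 or more libraries entered a fit with limma 3.58.1 (R 4.3.3) on log2(TPM + 1), genotype the only term, two-sided, with Benjamini-Hochberg adjustment over all 15189 genes. Fold changes on this scale understate those of low genes. Single quantities were compared by exact permutation tests. TPM times length was a whole multiple of 1 read, within 0.05 of a read, for 98.4 to 98.7% of values above 0, and reads were recovered from it. voom on those reads was an alternative, and called 586 genes. Floors of 3 reads cover counting error only. The fit was tested on simulated data.

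Named genes were the 4 subunits, Chd4, called genes of 5 lists (with the highest-level members up to 3 a list), 3 neighbours on each side of each pair, and the 5 genes most like each subunit with a mean of at least 5 TPM. The members and lists were chosen with earlier results of these data known. One listed gene is not reported here and was left out of the list counts.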

Additional observations from a re-analysis of the deposited data

Results flagged for a closer look

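In 6 of 110 groups of 4 libraries that were examined, 1 library lay far from the other 3; chance alone gives about 5% of groups. Abcc9 stood at 0.473 TPM in Chd4KO replicate 2, and Kcnj8 at 0.0556 TPM in the same library, where it rests on 1 read. Among the neighbouring genes, Gys2 stood at 3.89 TPM in Chd4KO replicate 1, St8sia1 at 0.605 TPM in Chd4KO replicate 4, Otog at 0.00824 TPM in Control replicate 3 and Ush1c at 62.6 TPM in Control replicate 1.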

How the results depend on the processing

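Under 19 alternatives neither Kcnj11 nor Abcc8 passed the threshold. The log2 change of Kcnj11 ran from -0.44 to 0.088 (limma adjusted p 0.27 to 0.963) and was 0.023 with median-of-ratios scaling and 0.088 without Chd4KO replicates 2 and 4. That of Abcc8 ran from -0.41 to -0.02 (limma adjusted p 0.322 to 0.968). The unfiltered log2 change of Abcc9 was -0.03, and it was -0.67 with voom on recovered reads, -0.32 with a pseudocount of 0.1 and 0.012 with quantile normalisation, and ran from -0.16 to 0.013 when single libraries were left out. The log2 ratio of Abcc8 to Kcnj11 ran from -0.14 to 0.041 when single libraries were left out. After rescaling to the TPM outside hormones, the Kcnj11 difference ran from -8.84 to 3.15 when single libraries were left out and was 6.93 without Chd4KO replicates 2 and 4, and the Abcc8 difference was 10.3 without them and ran from -172 to -32.8 when single libraries were left out. The cause was not tested.

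The log2 change of other named genes, none of them called, turned its sign under some settings. With array weights, the log2 change was 0.68 for Kcnj5, 0.018 for Taf9b, 0.038 for Tmx2, 0.34 for Zadh2 and 0.017 for Zfp13. With median-of-ratios scaling, the log2 change was 0.066 for Morn4, 0.099 for Mras, 0.13 for Taf9b, 0.12 for Tefm, 0.24 for Tmx2, 0.083 for Zadh2 and 0.0098 for Zfp13. With a pseudocount of 0.1, the log2 change was -0.0076 for Mir199a-1. With quantile normalisation, the log2 change was 0.016 for Morn4, 0.093 for Mras, 0.012 for Taf9b, 0.11 for Tefm, 0.11 for Tmx2, 0.12 for Zadh2 and 0.012 for Zfp13. With scaling without hormones and mitochondrial genes, the log2 change was 0.0043 for Taf9b and 0.11 for Tmx2. With voom, the log2 change was 0.067 for Tmx2. With Chd4KO replicates 2 and 4 left out, the log2 change was 0.078 for Atp2a3, 0.066 for Gm43766, 0.56 for Kcnj5, -0.25 for Ldhb, 0.12 for Morn4, 0.12 for Mras, 0.013 for Tefm, 0.053 for Tmx2, 0.35 for Zadh2 and 0.076 for Zfp13. When single libraries were left out, the lowest and highest values were Abcc5 -0.66 to 0.039, Cmas -0.17 to 0.23, Fam3c -0.013 to 0.21, Hsp90ab1 -0.55 to 0.0040, Kcnj12 -0.12 to 0.44, Kcnj5 -0.70 to 0.29, Ldhb -0.087 to 0.28, Mir199a-1 -0.41 to 0.79, Tmx2 -0.087 to 0.0051 and Zadh2 -0.35 to 0.21.

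The 451 changed genes became 220 with a minimum of 5 TPM, 724 (444 higher) with median-of-ratios scaling, 741 (422 higher) with quantile normalisation and 1364 with array weights, and 135 to 630 when single libraries were left out. The 5 calls in the gene lists count Cftr, which is given above as values only because it passed the filter through its Control libraries alone. These calls became 2 with a minimum of 5 TPM, 3 without a filter and 11 with array weights. They became 0 to 6 when single libraries were left out. Array weights called 1 neighbouring gene. Scaling moved the median gene's log2 change from -0.25 to -0.02 with median-of-ratios, -0.05 with quantile normalisation and -0.15 without hormones and mitochondrial genes.

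A replicate block gave 274 changed genes and 2 list calls. With the block the limma adjusted p was 0.0734 for Slc2a2, 0.0539 for Kcnk3 and 0.0895 for Kcnj13. Without the filter on low values it was 0.0588 for Mafa, 0.0581 for Slc2a2 and 0.0993 for Kcnj13. Same-numbered libraries shared only a number: the correlations of their deviations were -0.02, 0.43, 0.08 and 0.04, and only number 2 correlated best with its own number.

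Kcnj8 rests on at most 3 reads a library and Abcc9 on 2 to 31. When any single Control library was left out, Cftr no longer passed the filter.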
